A study of Equus caballus with 25 samples.

Results

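SIGLEC1 and IFI44L, a pair of interferon-inducible genes, were described here in the cells of bronchoalveolar lavage (BAL) fluid from healthy horses and from horses with equine asthma. The members were chosen by measured values: they are the array transcripts that the study's tables of changed genes pair with SIGLEC1 or IFI44L, and all of them stand in its list of transcripts higher in mild to moderate equine asthma. That gave 3 transcripts, ENSECAT00000015036 and ENSECAT00000015016 for SIGLEC1 and ENSECAT00000009875 for IFI44L, of the 7238 on the array. All 3 were among the 4930 transcripts that passed the filter on low intensities and were tested.

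The cells came from 25 client-owned horses of both sexes, 1 array for each. The CTRL group held 7 clinically healthy standardbreds, the MEA group 10 horses with mild to moderate asthma (inflammatory airway disease in the labels) and the SEA group 8 horses with severe asthma (recurrent airway obstruction in the labels). Horses with MEA were admitted only with neutrophilic inflammation and without mast cell or eosinophilic inflammation, and were sampled, like those with SEA, when they presented as clinical cases. By the study's description the horses with SEA were older than the rest, and both diseased groups held saddle horses as well as standardbreds, so that disease cannot be told apart from breed, nor SEA from age. Bacterial culture of the fluid was negative in all horses.

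Type I interferons are released by cells that sense viral nucleic acid. They signal through a receptor and the STAT proteins to a large set of interferon-inducible genes, many of which act against viruses. SIGLEC1 (sialoadhesin, CD169) is a receptor of macrophages that binds sialic acid on other cells and on particles, and its transcription rises under interferon. IFI44L is an interferon-induced protein of the cytoplasm, and its transcript is commonly used, together with SIGLEC1, in interferon signatures of blood. Alveolar macrophages are the main resident cells of BAL fluid, and neutrophils enter it in asthma.

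Each transcript was read by a 60-base probe, spotted 2 times on the array. The probes of the members are shown because they set what the 3 values measure. Capitals mark the bases that the SIGLEC1 probes have in common.
SIGLEC1 ENSECAT00000015036: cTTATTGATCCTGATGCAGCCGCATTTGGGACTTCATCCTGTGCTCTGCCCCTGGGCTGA
SIGLEC1 ENSECAT00000015016: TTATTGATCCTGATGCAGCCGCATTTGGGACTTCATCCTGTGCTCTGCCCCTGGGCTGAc
IFI44L ENSECAT00000009875: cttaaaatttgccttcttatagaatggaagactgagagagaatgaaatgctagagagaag
The SIGLEC1 probes share a run of 59 bases and are shifted against each other by a single base, so that the 2 transcripts are repeat measurements of 1 target and not independent evidence. Their GC content was 55.0%, and that of the IFI44L probe was 35.0%, against a median of 45.0% over all probes. No other probe on the array shared a run of 15 bases with any of these, on either strand.

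Levels are given as normalised intensity on the log2 scale, and levels of different probes are not compared with each other. For SIGLEC1 ENSECAT00000015036 the lowest, median and highest values were 5.18, 6.06 and 6.65 in the 7 CTRL horses. They were 6.65, 7.22 and 7.54 in the 10 MEA horses. In the 8 SEA horses they were 5.90, 6.69 and 7.14. The lowest MEA horse thus stood just above the highest CTRL horse, while the SEA horses overlapped both groups, with 4 of 8 above the highest CTRL horse and 4 of 8 below the lowest MEA horse.

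For SIGLEC1 ENSECAT00000015016, the repeat measurement, the lowest, median and highest values were 5.99, 6.24 and 7.09 in CTRL. They were 6.71, 7.21 and 7.62 in MEA. In SEA they were 5.99, 6.82 and 7.30. Here CTRL and MEA overlapped, because CTRL replicate 7 lay within the MEA range, and 6 of 10 MEA horses stood above the highest CTRL horse.

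For IFI44L the lowest, median and highest values were 5.14, 6.07 and 7.61 in CTRL. They were 5.28, 8.00 and 8.69 in MEA. In SEA they were 5.76, 6.45 and 8.04. IFI44L was high in most MEA horses, 7 of 10 of which exceeded every CTRL horse, but MEA replicate 7 held a value near the bottom of the CTRL range and MEA replicate 10 stood at 6.41. The SD of IFI44L in MEA was 1.07 (n = 10), against a median SD of 0.58 over all tested transcripts in that group. That of SIGLEC1 ENSECAT00000015036 was 0.28.

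**Figure D1:**
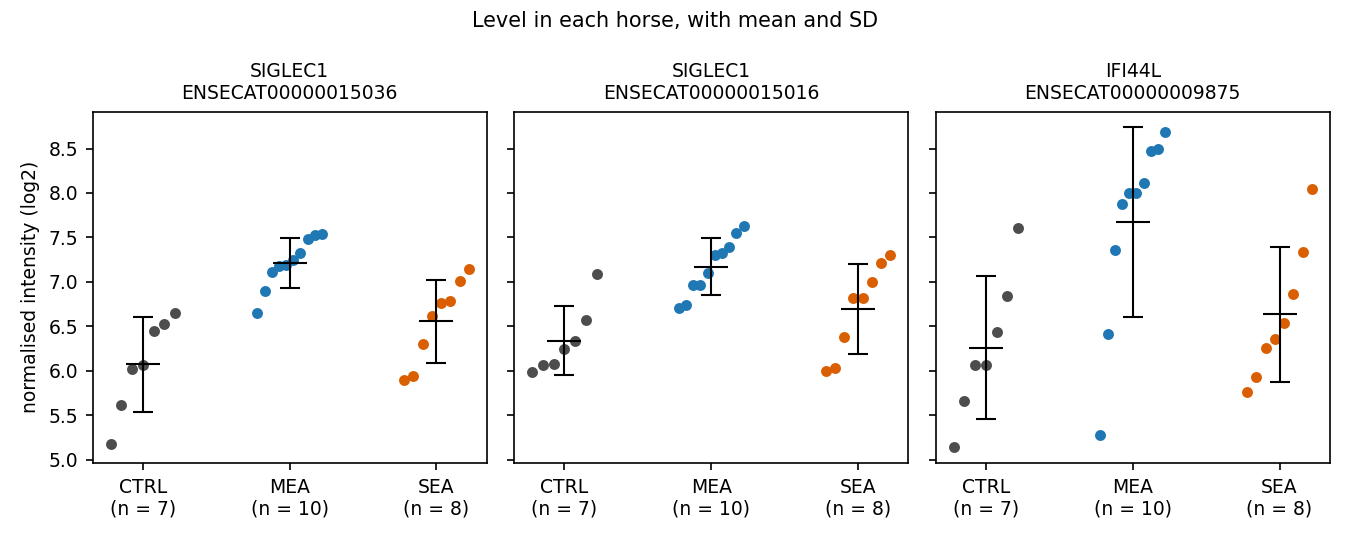
Normalised intensity (log2) of the 3 transcripts in each horse by group, each point 1 horse, with the group mean as a horizontal bar and the SD as an error bar. The MEA horses lie highest for all 3, from 6.65 to 7.54 for SIGLEC1 ENSECAT00000015036, and for IFI44L they spread from 5.28 to 8.69.

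The 2 spots of a probe did not always agree. For SIGLEC1 ENSECAT00000015036 they differed by a median of 0.33, and on CTRL replicate 1 they read 4.21 and 6.15. For SIGLEC1 ENSECAT00000015016 the median difference was 0.11, and no array had a difference over 1. For IFI44L the median was 0.14, but on MEA replicate 8 the spots read 6.99 and 9.01. Over all tested transcripts the median difference between spots was 0.16. The separation of MEA from CTRL at SIGLEC1 ENSECAT00000015036 held at the second spot, where 10 of 10 MEA horses exceeded all CTRL horses, and not at the first, where 8 of 10 did. Only CTRL replicate 1 had member spots that were not well above background, 1 of SIGLEC1 ENSECAT00000015036 and 1 of IFI44L, and no member spot was saturated.

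The order of the group means was CTRL, SEA, MEA from lowest to highest for all 3 transcripts. The comparison of MEA with CTRL asks which transcripts differ in the milder disease, and it is the one that chose the members, so its values are given as a description with no test. SIGLEC1 ENSECAT00000015036 was 2.21-fold higher in MEA, a log2 difference of 1.14 (SE 0.21; 95% interval 0.71 to 1.58), from 6.07 ± 0.53 (SD, n = 7) to 7.22 ± 0.28 (SD, n = 10). SIGLEC1 ENSECAT00000015016 was 1.78-fold higher, a log2 difference of 0.83 (SE 0.19; 95% interval 0.43 to 1.23). IFI44L was 2.66-fold higher, a log2 difference of 1.41 (SE 0.44; 95% interval 0.49 to 2.33), from 6.26 ± 0.80 to 7.67 ± 1.07.

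A transcript was called changed at a Benjamini-Hochberg adjusted p below 0.1 in limma with a fold of at least 1.5. All 3 members met this rule as higher in MEA, which their choice made likely, so it is no evidence. The rule called 3.23% of the 4930 tested transcripts higher and 9.74% in either direction. All 3 missed the rule with normexp, a model-based background correction, where their differences were 0.51, 0.51 and 0.74, and IFI44L also missed it at the first spot alone and when any 1 of 8 horses was left out. By the size of their difference IFI44L ranked 6, SIGLEC1 ENSECAT00000015036 ranked 29 and SIGLEC1 ENSECAT00000015016 ranked 87 of the 159 transcripts called higher. Every MEA horse stood above every CTRL horse at 0.101% of the tested transcripts (5 of 4930), SIGLEC1 ENSECAT00000015036 among them. The same arrays chose the members, so this too is a description only.

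The comparison of SEA with CTRL asks the same of the severer disease. It used SEA horses that did not enter the MEA list in which all members stand, though the tables searched also covered SEA. The CTRL horses were the same. A choice of transcripts that are low in these CTRL horses favours a rise in SEA too, so the p-values below are not free of that choice. None of the 3 members was called, in a comparison in which 32.5% of the tested transcripts were called and 15.9% were called higher in SEA. SIGLEC1 ENSECAT00000015036 was higher in SEA by 0.49 on the log2 scale (SE 0.26; 95% interval -0.06 to 1.03; limma adjusted p = 0.172). Its repeat, SIGLEC1 ENSECAT00000015016, differed by 0.35 (SE 0.24; 95% interval -0.15 to 0.86; limma adjusted p = 0.290), and IFI44L by 0.37 (SE 0.38; 95% interval -0.43 to 1.18; limma adjusted p = 0.490). By the two-sided exact permutation test over the 6435 ways to split these 15 horses, p was 0.0819, 0.153 and 0.368 in the same order. Each interval includes 0, and none excludes a rise of 0.86 in SEA.

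The comparison of SEA with MEA asks whether the levels differ between the diseases. It shares its MEA horses with the comparison that chose the members, and a choice of transcripts that are high in MEA favours a difference of this direction. All 3 members were lower in SEA, but none was called, while 2.05% of the tested transcripts were called and 1.32% were called higher in SEA. SIGLEC1 ENSECAT00000015036 was lower in SEA by a log2 difference of -0.66 (SE 0.19; 95% interval -1.06 to -0.25; limma adjusted p = 0.112). SIGLEC1 ENSECAT00000015016 differed by -0.48 (SE 0.21; 95% interval -0.91 to -0.04; limma adjusted p = 0.205). IFI44L differed by -1.03 (SE 0.42; 95% interval -1.91 to -0.16; limma adjusted p = 0.184). Without adjustment for the number of transcripts, the two-sided exact permutation test over 43758 splits of the 18 horses gave p of 0.00158, 0.0268 and 0.0371. The horses showed this direction unevenly: 8 of 8 SEA horses lay below the MEA mean at SIGLEC1 ENSECAT00000015036, 6 of 8 at SIGLEC1 ENSECAT00000015016 and 7 of 8 at IFI44L. In a single fit of all 25 arrays SIGLEC1 ENSECAT00000015036 passed the rule, with a difference of -0.66 and a limma adjusted p of 0.0854. That fit called 265 of the 4930 tested transcripts, 101 of them lower in SEA.

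**Figure D2:**
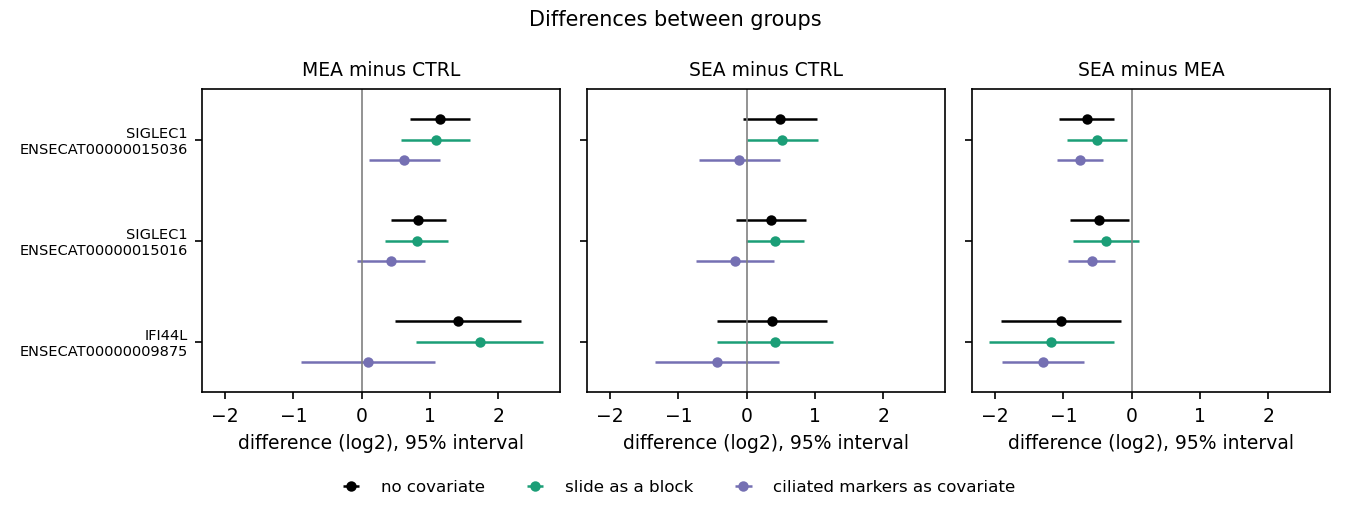
Log2 difference between groups (horizontal axis) for the 3 transcripts in the 3 comparisons, with 95% intervals, without a covariate, with slide as a block and with the mean of the ciliated cell markers as a covariate. The intervals of SEA minus CTRL include 0 without a covariate, and with ciliated markers as a covariate IFI44L in MEA minus CTRL moves from 1.41 to 0.09.

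The arrays lay on 4 slides that held all groups, but unevenly: slide 4 held 5 MEA horses, 1 CTRL horse and 1 SEA horse. Within slides 1, 2 and 3 SIGLEC1 ENSECAT00000015036 was higher in MEA than in CTRL by 1.53, 0.92 and 1.36 on the log2 scale, and on slide 4 by 0.53. SIGLEC1 ENSECAT00000015016 was higher by 1.21, 0.80 and 1.28 on the first 3, while on slide 4 the difference was -0.07, against the 1 CTRL horse there. IFI44L was higher in MEA on all 4 slides, by 2.35, 1.28, 1.81 and 1.44. With slide as a block the 3 differences were 1.08, 0.80 and 1.73. Between SEA and CTRL the within-slide differences of IFI44L were 2.05, -0.47, 0.27 and 0.70, with a single SEA horse on slides 1 and 4, and with slide as a block the difference was 0.42 (limma adjusted p = 0.459). Between SEA and MEA, slide as a block left the 3 members at -0.51, -0.37 and -1.18 (limma adjusted p from 0.283 to 0.472), and the within-slide differences were negative on every slide except that of SIGLEC1 ENSECAT00000015016 on slide 4, at 0.18.

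SIGLEC1 and IFI44L also varied together among horses of the same group. Deviations from the group means were used for this, so that differences between groups play no part. Over the 25 horses the Pearson r between SIGLEC1 ENSECAT00000015036 and IFI44L was 0.55 (permutation within groups, two-sided, p = 0.00282; adjusted over the 3 pairs 0.00423), and the Spearman rho was 0.57 (permutation p = 0.00740). For SIGLEC1 ENSECAT00000015016 and IFI44L r was 0.43 (permutation p = 0.0297) and rho 0.54 (permutation p = 0.0109). Without the 2 horses farthest from the median of SIGLEC1, r was 0.48 and 0.52. The 2 SIGLEC1 probes, which read the same target, correlated at 0.79. As a yardstick for repeat measurement, 447 pairs of tested probes on the array that share at least 59 bases had a median r of 0.89.

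Within single groups the relation was less certain. Between SIGLEC1 ENSECAT00000015036 and IFI44L, r was 0.41 for the CTRL horses (n = 7, exact permutation p = 0.370), 0.65 for the MEA horses (n = 10, permutation p = 0.0446) and 0.76 for the SEA horses (n = 8, exact permutation p = 0.0277). After adjustment over the 9 tests made in the 3 groups these were 0.417, 0.1005 and 0.0831. Between SIGLEC1 ENSECAT00000015016 and IFI44L, r was -0.03 in CTRL (exact permutation p = 0.946), 0.48 in MEA (permutation p = 0.161) and 0.76 in SEA (exact permutation p = 0.0259). In CTRL the sign rested on few horses: CTRL replicate 7 had the highest SIGLEC1 and the next-to-lowest IFI44L of its group, and without it and CTRL replicate 5 r was 0.83. In MEA and SEA r fell to 0.38 and 0.53 for SIGLEC1 ENSECAT00000015036 without the 2 farthest horses. Between the 2 SIGLEC1 probes themselves, r was 0.72 in CTRL, 0.54 in MEA (permutation p = 0.106) and 0.99 in SEA. In MEA it was 0.18 without the 2 farthest horses, so the repeat measurements agreed least in that group.

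Markers of ciliated cells in the fluid varied in the opposite direction to both genes. Ciliated cells line the airway and are shed into BAL fluid. The list of their markers had 10 tested transcripts of 8 genes (FOXJ1, the master regulator of motile cilia, with structural genes of the axoneme such as RSPH4A, RSPH9, SPAG6, TEKT1 and TEKT2). All 10 were called lower in MEA and in SEA than in CTRL. Marker symbols came only from the study's tables of changed genes, which favours calls. Of all 1684 named transcripts, 305 were called lower in MEA and 742 in SEA. The mean level of the 10 ciliated cell transcripts ranged from 9.41 to 11.1 in CTRL, from 6.13 to 10.5 in MEA and from 4.41 to 9.65 in SEA. Across the deviations of the 25 horses the mean of these transcripts correlated at -0.73 with SIGLEC1 and at -0.69 with IFI44L. Group by group, r for SIGLEC1, taken as the mean of its 2 transcripts, came to -0.77 (CTRL), -0.81 (MEA) and -0.75 (SEA). For IFI44L it was -0.23, -0.86 and -0.82. MEA replicate 7, the lowest of its group in IFI44L and in SIGLEC1 ENSECAT00000015036, had the highest ciliated cell markers of the MEA horses, 2.21 above the group mean. SEA replicate 1, the highest SEA horse for all 3 members, had the lowest ciliated cell markers, by a deviation of -3.36. In the study's cytology the mean percentage of exfoliated epithelial cells was not lower in MEA or SEA than in CTRL. The study reported no correlation between the number of those cells and the expression of ciliary genes. From the arrays of a bulk sample alone, fewer cells of a type and less RNA per cell cannot be told apart.

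With the mean of the ciliated cell markers as a covariate, a setting added after the data were seen, the deviations of SIGLEC1 ENSECAT00000015036 and IFI44L had r = 0.14 (permutation p = 0.539), and those of SIGLEC1 ENSECAT00000015016 and IFI44L had r = -0.09 (permutation p = 0.675). The MEA minus CTRL differences became 0.63 and 0.43 for SIGLEC1 and 0.09 for IFI44L, and the SEA minus CTRL differences became -0.11, -0.17 and -0.44. The SEA minus MEA differences became -0.76, -0.59 and -1.30, all past the calling rule (limma adjusted p = 0.0463, 0.0881 and 0.0496). That fit called 278 of the 4930 tested transcripts, 125 of them lower in SEA. The choice of members that are high in MEA favours this direction here too. The covariate itself was lower in both diseased groups than in CTRL, so in the comparisons with CTRL its part and that of the disease cannot be told apart.

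**Figure D3:**
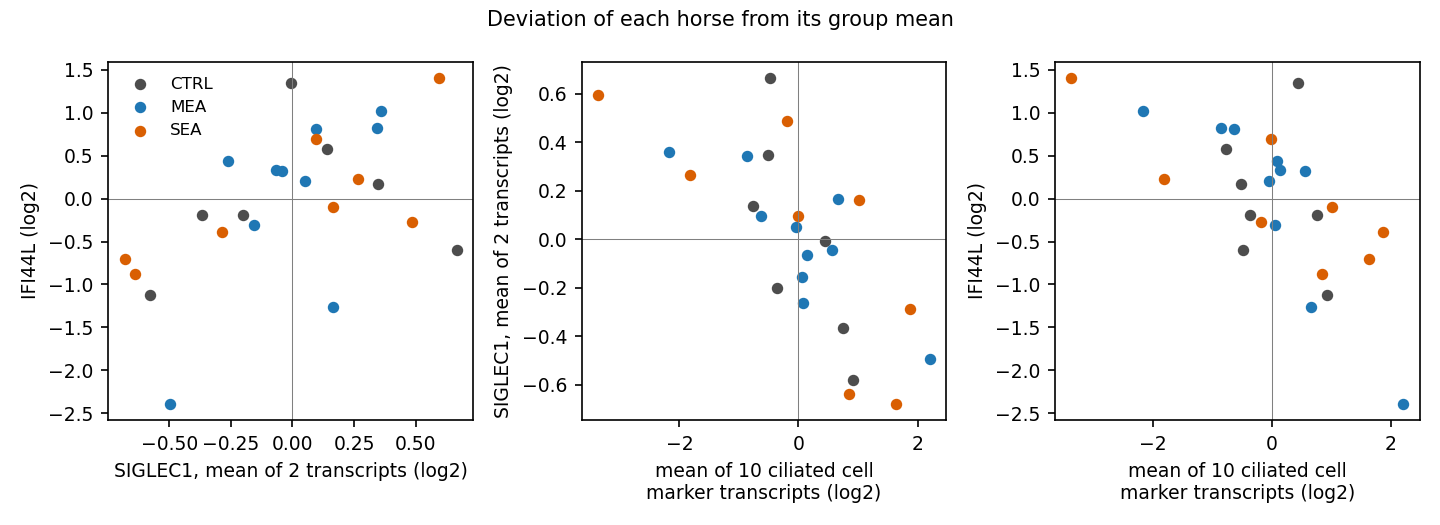
Deviation of each of the 25 horses from the mean of its group, in log2 units, for SIGLEC1 (mean of its 2 transcripts) against IFI44L, and for each of them against the mean of 10 ciliated cell marker transcripts. Both genes fall as the ciliated cell markers rise, with r of -0.73 for SIGLEC1 and -0.69 for IFI44L.

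Epithelial markers (EPCAM, CDH1, CLDN7, KRT18, SPINT1 and SPINT2) ran the same way. Their 7 tested transcripts had a mean level that correlated at -0.78 with SIGLEC1 and at -0.56 with IFI44L, and 4 of 7 were called lower in MEA and 7 of 7 in SEA. Among all named transcripts, 305 of 1684 were called lower in MEA and 742 in SEA. The mean of the 7 tested macrophage marker transcripts, of 14 genes listed, correlated at 0.49 with SIGLEC1 and at 0.44 with IFI44L. It ranged from 8.00 to 9.65 in CTRL, from 8.39 to 10.2 in MEA and from 8.97 to 10.2 in SEA. Its group means were 8.84 (CTRL), 9.41 (MEA) and 9.53 (SEA). By the study's cytology, macrophages prevailed among the counted cells of CTRL and MEA horses, and neutrophils among those of SEA horses. The marker mean thus did not follow the macrophage share across groups, and as a covariate it does not stand for that share. SIGLEC1 levels of SEA are compared with those of samples far richer in macrophages, and the effect of this was not tested. None of the 7 macrophage marker transcripts was called in MEA and 5 of 7 were called higher in SEA. Of all named transcripts, 119 of 1684 were called higher in MEA and 708 in SEA. All tested macrophage and neutrophil marker transcripts stand in the study's table of genes changed in SEA against CTRL. Calls in SEA were thus favoured in advance. CD68, a lysosomal marker of macrophages, was bright in all groups, with means of 14.4 in CTRL, 15.1 in MEA and 15.3 in SEA. MARCO and VSIG4 went the other way in SEA, by -1.12 and -0.54 against CTRL, neither called. MARCO was also bright, with means of 14.0 in CTRL, 14.2 in MEA and 12.8 in SEA. Their r with SIGLEC1 was -0.06 and -0.07, against 0.61 for CD68. With the macrophage mean as a covariate the MEA minus CTRL differences were 0.90 and 0.74 for SIGLEC1 and 0.95 for IFI44L, and the correlations with IFI44L were 0.41 (permutation p = 0.0406) and 0.33 (permutation p = 0.120). The 10 neutrophil marker transcripts, 8 of which were called higher in SEA and none higher in MEA (LTF was called lower in both), had a mean that correlated at -0.12 with SIGLEC1 and at -0.06 with IFI44L. Lymphocyte markers, with 11 tested transcripts, correlated at 0.08 and 0.23. The 2 named genes of the SIGLEC family beside SIGLEC1, CD33 and SIGLEC6, had 3 transcripts, none of which passed the intensity filter.

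The share of spots well above background, a measure of array quality, correlated weakly with the deviations of the members, at -0.17 and -0.17 for SIGLEC1 and -0.22 for IFI44L. It ranged from 58.2% to 90.8% over the 25 arrays.

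The transcripts that followed the members between horses were ranked by the correlation of deviations over the 25 horses, which is a description with no test. The points share arrays and, as given above, a common relation to the ciliated cell markers. Among 4927 other tested transcripts the median r with SIGLEC1 was -0.01, and 12 reached 0.7 and none 0.8. The top 10 for SIGLEC1 ran from 0.79 to 0.71 and held 2 with a symbol: MMP19, a matrix metalloproteinase (r = 0.73), and C22orf13 (r = 0.71). MMP19 was called higher in MEA and in SEA, in the latter by 0.91. The highest without a symbol were ENSECAT00000008549 (r = 0.79), called higher in MEA by 0.85, and ENSECAT00000018633 (r = 0.78), which was called in no comparison. The top 10 of SIGLEC1 and of IFI44L had 0 transcripts in common, and the 100 highest of each had 17. IFI44L itself ranked 168 among the transcripts that followed SIGLEC1, and SIGLEC1 would rank 80 among those that followed IFI44L, with an r of 0.52 between them.

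For IFI44L the top 10 ran from 0.79 to 0.65 and held 3 with a symbol. TEC, a tyrosine kinase of immune cells, had r = 0.76. GTPBP1, a GTP-binding protein, had r = 0.74. EIF2AK2 (PKR), an interferon-inducible kinase that senses double-stranded RNA and halts translation, had r = 0.71. The highest without a symbol were ENSECAT00000009881 (r = 0.79) and ENSECAT00000001795 (r = 0.78). Adjusted for the ciliated cell marker mean, r with IFI44L was 0.77 for ENSECAT00000009881, 0.64 for ENSECAT00000001795, 0.57 for TEC, 0.49 for GTPBP1 and 0.45 for EIF2AK2. With SIGLEC1 it was 0.81 for ENSECAT00000008549, 0.67 for ENSECAT00000018633, 0.55 for MMP19 and 0.53 for C22orf13. ENSECAT00000008549 and ENSECAT00000009881 thus ranked first for their gene with and without that adjustment. The probes of the unnamed followers and of EIF2AK2 are shown because they are what identifies these transcripts here.
ENSECAT00000008549: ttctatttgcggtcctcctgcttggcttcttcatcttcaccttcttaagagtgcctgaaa
ENSECAT00000018633: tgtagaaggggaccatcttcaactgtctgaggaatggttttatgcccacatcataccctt
ENSECAT00000009881: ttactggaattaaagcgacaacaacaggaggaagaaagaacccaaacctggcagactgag
ENSECAT00000001795: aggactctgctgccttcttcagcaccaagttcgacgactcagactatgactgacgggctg
EIF2AK2 ENSECAT00000012221: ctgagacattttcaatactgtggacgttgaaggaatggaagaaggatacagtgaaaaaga

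By the whole profile over the 25 horses, in which group differences count too, the 5 named transcripts most like SIGLEC1 were IL10RA (r = 0.81), the ligand-binding chain of the interleukin-10 receptor, SPATA3 (0.81), TSEN15 (0.80), a subunit of the tRNA splicing endonuclease, PRPF3 (0.79), a splicing factor, and MMP19 (0.76). Those most like IFI44L were EIF2AK2 (0.79), PTPN23 (0.72), IL10RA (0.69), TFEC (0.68) and TEC (0.65). IL10RA, present in both, was higher in MEA than in CTRL by 0.87 (called), and by 0.39 in SEA (not called). IL10RA, SPATA3, TSEN15, PRPF3 and EIF2AK2 owe their symbol only to the study's table of genes changed in MEA against CTRL. A ranking of named transcripts thus favours such profiles, and the likeness is no evidence. Among all tested transcripts, named or not, IL10RA, TFEC and TEC ranked 12, 15 and 21 by likeness to IFI44L.

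Other interferon-inducible genes were called in different directions in the comparisons. Of 67 genes on the list beside the members, 19 could be named on this array, with 22 transcripts, all tested. Symbols were available only for genes that the study's own tables list as changed in these horses, so the list is not independent evidence and its counts are read beside those of all named transcripts. In MEA 3 of the 22 were called higher and none lower than in CTRL. Of the 1684 tested transcripts with a symbol, 119 were called higher and 305 lower. The median log2 difference of the list was 0.18, against -0.09 for the transcripts with a symbol and 0.03 for all 4930. The 3 were ADAR, an RNA-editing enzyme, by 0.88 (SE 0.26; limma adjusted p = 0.0622), EIF2AK2, by 0.83 (SE 0.25; limma adjusted p = 0.0651), and MOV10, an RNA helicase, by 0.69 (SE 0.17; limma adjusted p = 0.0314).

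EIF2AK2 and MOV10 had the same order of groups as the members. Both owe their symbol only to the study's table of genes changed in MEA against CTRL. That favours this order in advance, so the order is no evidence. In SEA EIF2AK2 and MOV10 were above CTRL by 0.43 and 0.21, neither called. They were below MEA by differences of -0.39 and -0.48, neither called. ADAR was called higher in SEA too, by 0.92.

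In SEA 6 of the 22 were called higher and 8 lower than in CTRL. Both shares were below those of the named transcripts as a whole, of which 708 of 1684 were called higher and 742 lower. The median log2 difference of the list was -0.67, against -0.38 for all named transcripts. The higher ones included CD274 (PD-L1, an immune checkpoint ligand) by 1.497, PLSCR1 by 1.21, DDX58 (RIG-I, a sensor of viral RNA) by 1.14 and LAMP3 by 1.07. The lower ones included CXCL10, a chemokine induced by interferon gamma, with a difference of -1.03, CMPK2 with -0.92, TREX1, a DNA exonuclease, with -0.88, and TRIM25, a ubiquitin ligase that activates RIG-I, with -0.73. Between the diseases 5 of the 22 were called lower in SEA and none higher: CMPK2, TREX1, TRIM25 and both transcripts of IFI27L1. Of all named transcripts 27 of 1684 were called lower in this comparison and 61 higher. The differences of the 5 ran from -0.75 for IFI27L1 ENSECAT00000018190 to -1.22 for TRIM25. These 5 differed from CTRL in MEA by no more than 0.48, and none was called there.

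**Figure D4:**
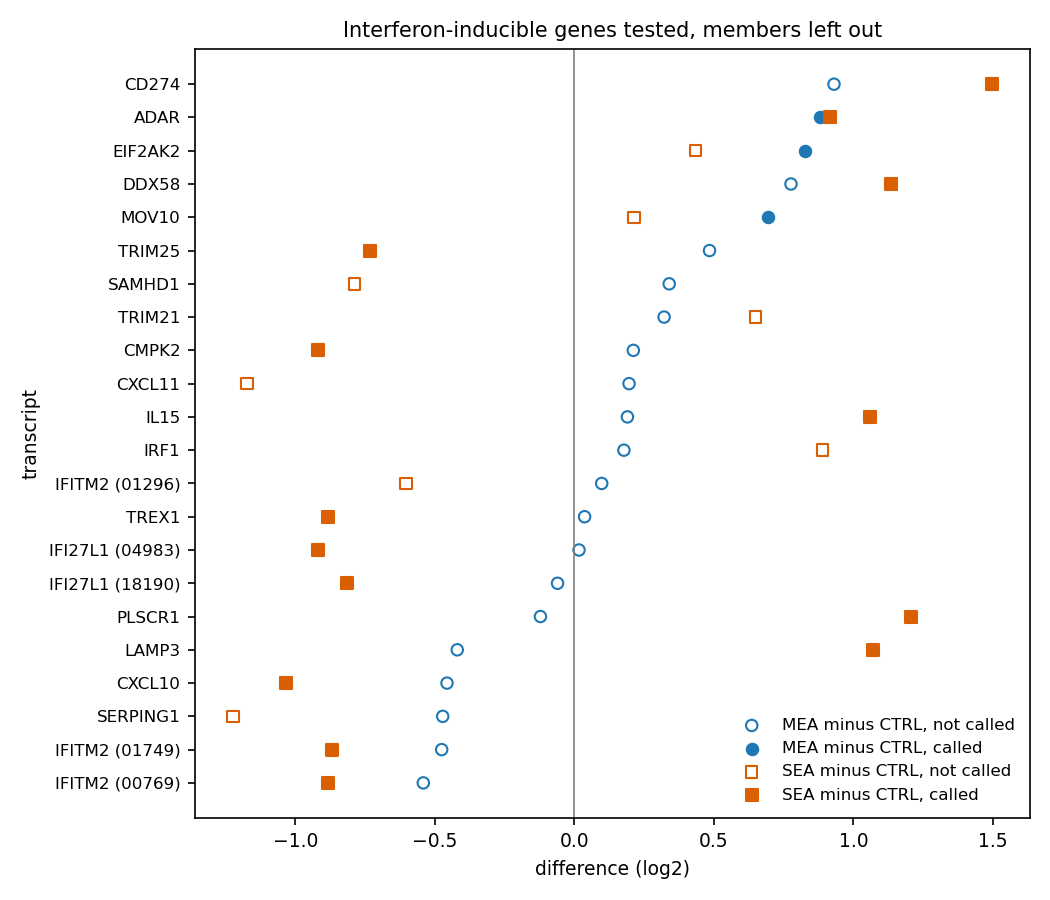
Log2 difference from CTRL (horizontal axis) for the 22 tested transcripts of other interferon-inducible genes, circles for MEA and squares for SEA, filled where the transcript was called. In MEA 3 are called, all higher, and in SEA 6 are called higher and 8 lower.

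Across horses, deviations of the 22 had a median r of 0.00 with SIGLEC1 and 0.28 with IFI44L, against -0.01 and 0.01 for all tested transcripts. After EIF2AK2, the highest with IFI44L was CXCL10 (r = 0.55), and the highest with SIGLEC1 was MOV10 (r = 0.48).

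Genes that sense viral nucleic acid or carry and brake the interferon signal could be followed only in part. Of 25 listed genes 9 could be named, with 10 transcripts. All 10 owe their symbol to the study's table of genes changed in SEA against CTRL. Calls in SEA were thus favoured in advance and are no evidence about this group of genes. All 10 were called higher in SEA than in CTRL and 1 of 10 in MEA, the phosphatase gene PTPN2, by 0.75. Of the tested transcripts with a symbol, 708 of 1684 were called higher in SEA. The mean of these 10 transcripts had an r of 0.00 with the deviations of SIGLEC1 and of 0.13 with those of IFI44L.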

How the data were processed

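Total RNA of BAL cells from 25 horses was hybridised to single-colour arrays with 60-base probes. The authors deposited linear intensity values (processed signal, background-subtracted and detrended by Feature Extraction) and a table of intensity values normalised with R 2.11.1, per the labels. Each array held 14476 spots, 58.2% to 90.8% of them well above background, and the number of arrays limits the precision. From the deposited intensity values, log2 signals were normalised by cyclic loess over the 25 arrays (span 0.7 with 3 iterations), a step that assumes most transcripts do not differ. Both spots of each probe were then averaged. As in the study's methods, a transcript was dropped if its value was under 4.5 on 19 arrays or more. Values correlated at 0.9995 with the authors' table. Groups were compared in limma 3.58.1 (R 4.3.3) on the arrays of the groups compared, in place of the study's permutation software, with Benjamini-Hochberg adjustment over 4930 transcripts. Horses are separate animals. On simulated arrays of 4930 transcripts, of which 100 were changed by 1 log2 unit and 100 by 2, the changes of 1 unit were called at 66 transcripts for MEA minus CTRL, 48 for SEA minus CTRL and 62 for SEA minus MEA. Unchanged transcripts made up 34 of 192, 13 of 148 and 23 of 180 calls. The simulated noise was independent between transcripts. On the real arrays 327 tested transcripts had r of at least 0.7 with the ciliated cell marker mean. The simulated shares thus do not give the error rate of these data. Correlations were tested by permutation (Python with scipy), exactly for 7 and 8 horses and with 100000 resamples for 10 and for 25.

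The members and gene lists were chosen with earlier results of these data known. Named were the members, the 10 closest followers of each gene (2 without a symbol each), the 5 named transcripts with the most similar profile, and at most 12 interferon-inducible genes that followed a member or were called, these 12 taken after their values were seen. Symbols came only from the study's lists of changed genes. Alternatives were the normalization, background correction, filter, spots, covariates, blocks, thresholds and each horse left out. The replicate numbers name horses and do not pair them: the deviations of the 22 same-numbered pairs correlated between -0.44 and 0.41, with a median of 0.03. The authors' own fold changes were not used. Promoter and protein sequences were not analysed here.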

Additional observations from a re-analysis of the deposited data

How the results depend on the processing

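Under the other normalizations, filters, single spots and blocks, and with 1 horse left out, the members kept their direction in all 3 comparisons. The exceptions came from covariates added after the data were seen. With the mean of the ciliated cell markers, SEA minus CTRL became -0.11, -0.17 and -0.44 for SIGLEC1 ENSECAT00000015036, SIGLEC1 ENSECAT00000015016 and IFI44L, and MEA minus CTRL became 0.63, 0.43 and 0.093. With the macrophage markers, SEA minus CTRL became -0.077 for IFI44L. With normexp background correction, which compresses low signals through its offset of 50, MEA minus CTRL became 0.51, 0.51 and 0.74, and none of the 3 was called. With ciliated cell markers none was called either. With macrophage markers only SIGLEC1 ENSECAT00000015036 was. IFI44L lost its call also at the first spot, at an adjusted p below 0.05 and when replicate 1, 3 or 6 of CTRL, or 2, 3, 4, 5 or 8 of MEA, was dropped (1.22 to 1.67 over all horses left out).

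In SEA minus MEA, SIGLEC1 ENSECAT00000015036 passed the rule in a fit of all 25 arrays (-0.66), with array quality (the share of spots above background) as a covariate (-0.64), with ciliated cell markers (-0.76) and with macrophage markers (-0.70). With ciliated cell markers SIGLEC1 ENSECAT00000015016 (-0.59) and IFI44L (-1.30) passed too. By the exact permutation test, unadjusted, the 3 differences of -0.66, -0.48 and -1.03 each had p below 0.05. The choice of members that are high in these MEA horses favours such values, so they are no independent support. Leaving out 1 horse at a time gave -0.74 to -0.57 for SIGLEC1 ENSECAT00000015036, called without SEA replicate 1 or 6 or MEA replicate 1, 3 or 5, and -1.30 to -0.91 for IFI44L, called without SEA replicate 1.

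The correlation of SIGLEC1 ENSECAT00000015036 with IFI44L became 0.14 after adjustment for ciliated cell markers. That of SIGLEC1 ENSECAT00000015016 with IFI44L became 0.36 with normexp, 0.35 at the first spot, -0.092 after adjustment for ciliated cell markers and 0.33 for macrophage markers. It ran from 0.35 to 0.55 with 1 horse left out, with p above 0.05 without SEA replicate 1, 2 or 7 or MEA replicate 2 or 7.

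The counts of called transcripts moved most. For MEA minus CTRL (480) they were 118 with normexp, 171 with slide, 216 with scan date and 136 with the replicate number as a block, 208 at an adjusted p below 0.05, 804 without slide 4, 99 with macrophage markers and 0 in limma with ciliated cell markers, where 317 had an unadjusted p below 0.05. With 1 horse left out they ran from 157 to 740, over 1.5 times off when CTRL replicate 1, 4 or 6, or MEA replicate 2, 5, 7, 9 or 10, was dropped. For SEA minus CTRL (1601) they were 780 with normexp, 318 with ciliated cell markers and 405 with macrophage markers. For SEA minus MEA (101) limma called 0 at the 75th percentile, with normexp, with slide or the replicate number as a block and without slide 4 (993, 1007, 657, 637 and 470 at an unadjusted p below 0.05). It called 40 with quantile normalization, 32 at the second spot alone, 2 with scan date as a block or at an adjusted p below 0.05, 265 in 1 fit of all arrays, 166 with array quality, 278 with ciliated cell markers and 410 with macrophage markers. With 1 horse left out it called 2 to 554, over 1.5 times off for each horse. With the replicate number as a block SIGLEC1 ENSECAT00000015016 lost its call in MEA minus CTRL (0.89), and no other member changed its call, with SEA minus MEA at -0.66, -0.47 and -1.23. The numbers do not pair the horses. The cause of these changes was not tested.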
